A study of Mus musculus with 4 samples.

Results

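The genes examined were 8 members of the MYC network: the MYC genes Myc and Mycn, the MXD antagonists Mxi1, Mxd3 and Mxd4, the related repressor Mnt, and Mlx and its partner Mlxip. They were taken by symbol from a table of 22138 genes, in which all 8 were found, and all 8 passed the filter on low values that left 12486 genes for testing. The table held 4 libraries of TT2 mouse embryonic stem cells (C57BL/6xCBA, labelled female), cultured feeder-free with serum and LIF, a cytokine that sustains self-renewal. A pair of libraries came from cells given a control siRNA (n = 2) and the other pair from cells given an siRNA against Hnrnpk (n = 2). Each culture was transfected at 100 nM and, 24 hours later, at 50 nM, and was harvested about 72 hours after that. The series calls the libraries biological replicates. Nothing used here says whether they were separate cultures, and the p-values then measure only the spread between these libraries. The target's product, hnRNP K, binds single-stranded nucleic acids and has been reported to act on MYC at the promoter and on its mRNA, and the comparison asked which transcripts changed when it was depleted.

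MYC proteins are basic helix-loop-helix leucine zipper transcription factors that bind DNA as heterodimers with MAX, mostly at the E-box, and activate genes of ribosome production, metabolism and cell division. The MXD proteins and MNT compete for MAX and repress the same sites by recruiting SIN3 and histone deacetylases, while MLX pairs with the glucose-responsive activators MLXIP (also called MondoA) and MLXIPL (ChREBP). In mouse embryonic stem cells, MYC and MYCN act redundantly in self-renewal and proliferation.

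The values are normalized and the depth behind them is unknown, so no counting error is given. Hnrnpk stood at 236 and 226 RPKM (reads per kilobase of gene, scaled to the reads of the library) in the controls and at 68.0 and 70.5 RPKM after Hnrnpk siRNA (log2 change -1.73, SE 0.0629, limma adjusted p = 6.59e-08). All 10 markers of embryonic stem cells listed were at 1 RPKM or more in both groups, and their sum was 3935 to 4094 RPKM in the controls and 4699 to 5022 RPKM after Hnrnpk siRNA. Dppa5a rose from 1320 and 1276 RPKM in the controls to 2164 and 2451 RPKM after Hnrnpk siRNA. The other 9 summed to 2774 and 2658 RPKM in the controls and to 2535 and 2570 RPKM after Hnrnpk siRNA. Within those 9, Nanog rose from 204 and 190 RPKM to 353 and 342 RPKM. Sox2, Tdgf1, Fgf4 and Utf1 were lower in both Hnrnpk siRNA libraries than in both controls. Pou5f1 was too, but only just, with 287 and 301 RPKM in the controls and 245 and 286 RPKM after Hnrnpk siRNA. Groups lay apart in this way, in either direction, for 84.7% of genes tested. Zfp42, Esrrb and Klf4 overlapped between the groups. Summed markers of other cells also moved with the groups. Of 6 two-cell-like markers measured, 0 were at 1 RPKM or more in the controls and 5 after Hnrnpk siRNA, and their sum went from 0.444 to 0.493 RPKM in the controls to 31.3 to 37.7 RPKM. Primitive endoderm markers (5 of 9 at 1 RPKM or more in the controls, 6 after Hnrnpk siRNA) went from 21.0 to 21.8 RPKM to 63.1 to 65.0 RPKM, and trophectoderm markers (5 of 8, then 6) from 69.6 to 72.7 RPKM to 96.7 to 101.6 RPKM. The trophectoderm sum does not describe every marker of its list. Cdx2, Gata3, Eomes, Krt8, Krt18 and Hand1 were higher in both Hnrnpk siRNA libraries than in both controls, and Elf5 was lower. Fibroblast markers (2 of 8 at 1 RPKM or more in both groups) summed to 8.17 to 9.66 RPKM in the controls and 4.92 to 5.28 RPKM after Hnrnpk siRNA. In that list Col1a1, Col1a2 and Thy1 were lower in both Hnrnpk siRNA libraries than in both controls. Pdgfra, listed for primitive endoderm too, and Lum were higher, and the others overlapped. Neural and mesoderm markers (3 of 8, then 2) summed to 6.70 to 7.55 RPKM and 4.15 to 4.53 RPKM. Pax6, Nes, Mixl1 and Mesp1 were lower in both Hnrnpk siRNA libraries, T and Neurog2 were higher, and the others overlapped. No marker measured was at 0 in all libraries. The part of these cells in the results below was not tested. In bulk RNA, fewer cells of a type and less RNA per cell cannot be told apart.

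Promoter sequences are shown because hnRNP K is known for binding the CT element of human MYC, a run of CCCTCCC repeats, and because MYC, MXD and MLX dimers bind the E-box CACGTG. RefSeq promoter windows (GRCm38.p6) were matched by symbol for 7 of the 8 genes, the exception being Myc. Both motifs were searched on both strands in the 250 bases before each start site. CACGTG is its own reverse complement, and neither motif can overlap the other by more than its end bases. CCCTCCC was found before 3 of 7 genes (42.9%), Mycn and Mlxip among them, against 21.5% of the 27025 genes with a window and 19.7% of the 32851 windows. CACGTG was found before Mxd4, Mnt and Mlx, also 3 of 7 genes, against 6.86% of genes and 6.02% of windows. The stretches around 5 of the matches are given 5′ to 3′ on the strand of the gene, with the motif in capitals.
Mycn, chr12:12941915-12941963, minus strand: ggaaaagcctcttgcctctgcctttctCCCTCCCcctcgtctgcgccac
Mlxip, chr5:123394762-123394797, plus strand: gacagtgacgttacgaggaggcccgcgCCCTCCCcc
Mxd4, chr5:34187898-34187956, minus strand: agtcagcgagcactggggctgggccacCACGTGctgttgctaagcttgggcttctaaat
Mnt, chr11:74830774-74830832, plus strand: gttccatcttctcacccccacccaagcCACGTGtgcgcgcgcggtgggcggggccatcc
Mlx, chr11:101087223-101087276, plus strand: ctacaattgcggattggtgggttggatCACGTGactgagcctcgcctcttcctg

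The CCCTCCC match begins 100 bases before the RefSeq start of Mycn and 9 before that of Mlxip. Mycn and Mlxip were both lower after Hnrnpk siRNA, and of the 3 genes with CACGTG, Mxd4 and Mlx were higher and Mnt was lower. Of all 8 genes 5 were lower, among them Mxi1, whose windows held neither motif. A link between motif and direction was not tested. A match is a run of letters in this window and was not measured as a binding site.

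All 8 genes were called between the groups, 3 higher and 5 lower after Hnrnpk siRNA, at a Benjamini-Hochberg adjusted p under 0.05 in limma. Myc, Mxd4 and Mlx were higher, and Mycn, Mxi1, Mxd3, Mnt and Mlxip were lower. Calls were common in these data: 67.2% of the genes tested were called, 32.2% higher and 35% lower, so the number of calls is not particular to the 8 genes. Both Hnrnpk siRNA libraries lay on the same side of both controls for all 8 genes, as they did for 84.7% of genes tested. None of the 8 reached a log2 change of 1 in size, a size that, together with a call, 8.51% of genes tested reached. The median log2 change was -0.39 over the 8 genes and -0.015 over all genes tested. Without control replicate 1, 6 of the 8 were called, and without control replicate 2 all 8 were. Permuting 4 libraries gives an exact p of 0.333 at best, so the calls depend on limma's sharing of variance between genes.

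**Figure D1:**
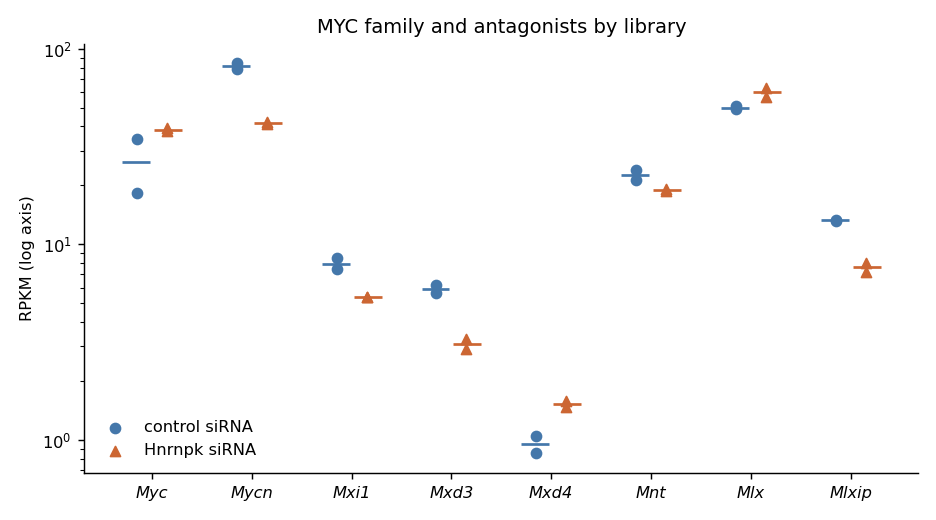
RPKM (log axis) of the 8 genes in the control siRNA libraries (circles) and the Hnrnpk siRNA libraries (triangles), with a bar at each group's mean (n = 2). Mycn is at 79.1 and 84.0 RPKM in the controls and at 42.0 and 41.2 RPKM after Hnrnpk siRNA, while Myc is spread from 18.3 to 34.3 RPKM between the controls.

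Mycn, the MYC gene with the higher level in these cells, fell. It lies on GRCm38 chromosome 12 from 12936093 to 12941914 (minus strand, ENSMUSG00000037169). Its level was 79.1 and 84.0 RPKM in the controls and 42.0 and 41.2 RPKM after Hnrnpk siRNA. Both Hnrnpk siRNA libraries were far below both controls, and the replicates of each group lay close together. The level fell by 49.0%, with a log2 change of -0.96 (SE 0.0628, adjusted p = 1.56e-06). That was the largest change among the 8 genes on the log2(RPKM + 0.5) scale.

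Myc was higher after Hnrnpk siRNA, but the size of that difference depended on which control it was set against. The gene lies on chromosome 15 from 61985391 to 61990374 (plus strand, ENSMUSG00000022346). It stood at 18.3 RPKM in control replicate 1, 34.3 RPKM in control replicate 2, and 39.2 and 37.8 RPKM after Hnrnpk siRNA. The groups did not overlap, yet control replicate 2 lay nearer to the Hnrnpk siRNA libraries than to the other control. Group means were 26.3 ± 11.4 RPKM and 38.5 ± 0.951 RPKM (SD, n = 2 each), and the log2 change was 0.61 (SE 0.214, 95% confidence interval 0.13 to 1.09, adjusted p = 0.0293). Without control replicate 1 the log2 change was 0.16 (adjusted p = 0.08415), and without control replicate 2 it was 1.05 (adjusted p = 3.73e-08). The call was also lost without Hnrnpk siRNA replicate 1 (0.58, adjusted p = 0.0618) and with no filter on low genes (adjusted p = 0.157). Among all alternatives the adjusted p of Myc ran from 3.73e-08 to 0.157.

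The controls differed more in Myc than in almost any other gene. On the log2 scale control replicate 2 was 0.89 above control replicate 1, a size that 9 of 12486 genes, Myc among them, reached or passed, and the median gene differed by 0.091. Mycn differed by 0.087 between the same libraries. Among those 9 genes were Chac1, Ddit3, Trib3 and Atf3, genes of the integrated stress response, a program in which phosphorylation of eIF2 raises translation of the transcription factor ATF4. The others beside Myc were Gm10180, also higher in control replicate 2 (1.09), and Ndufa4l2, Lefty1 and Hist1h4a, which were lower there (-1.43, -0.97 and -0.94). The 4 stress response genes were all higher in control replicate 2, but they differed after Hnrnpk siRNA. Chac1 stood at 8.96 and 26.7 RPKM in the controls and lay between them at 11.7 and 13.1 RPKM, and Ddit3 went from 4.82 and 11.2 RPKM to 60.0 and 68.1 RPKM. Trib3 stood at 18.9 and 40.3 RPKM in the controls and at 50.0 and 55.3 RPKM after Hnrnpk siRNA, with control replicate 1 lowest and control replicate 2 next, as in Myc. Atf4 itself stood at 188 and 306 RPKM in the controls and at 305 and 333 RPKM after Hnrnpk siRNA, and was not called. A list of 22 genes of this response was then drawn up, with these values known. In it 18 of 20 tested genes were higher in control replicate 2 than in control replicate 1, against 5330 of 12486 genes tested. That count describes a list built around genes already seen to differ, and 55 of 70 MYC-activated targets and 13 of 19 factors on Myc DNA and mRNA were also higher in control replicate 2. The stress list's summed level was 1378 and 1709 RPKM in the controls and 1599 and 1662 RPKM after Hnrnpk siRNA. Between the groups 9 of its 20 tested genes were called higher and 5 lower (70% called, near the 67.2% of all genes), 8 and 9 without control replicate 1, and 14 and 4 without control replicate 2. Its part in the level of Myc was not tested.

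**Figure D2:**
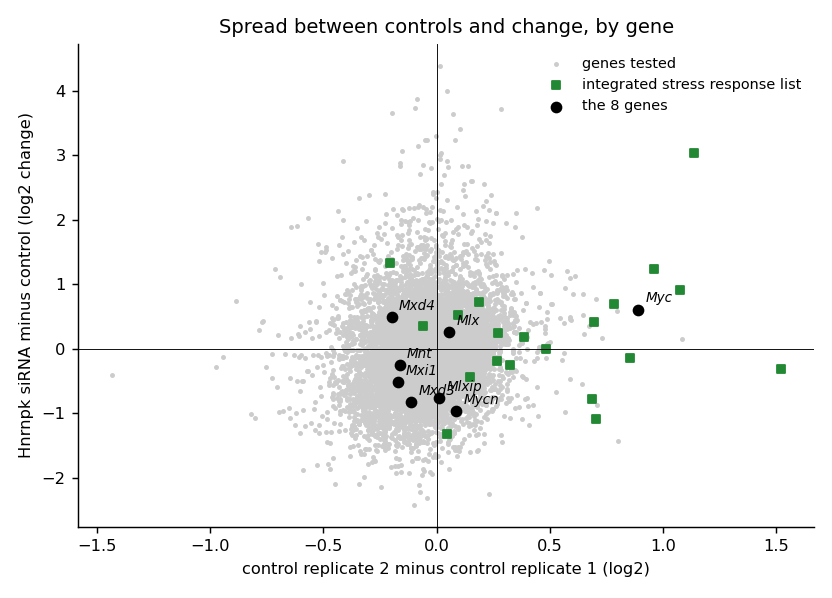
Each point is a gene: the x axis is the log2 difference of control replicate 2 minus control replicate 1, and the y axis the log2 change after Hnrnpk siRNA. Of the 8 genes (black), 7 lie within 0.2 of 0 on the x axis and Myc lies at 0.89, among genes of the integrated stress response list (squares).

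The 3 tested genes whose centred log2 values lay nearest to those of Myc over the 4 libraries were Herpud1, Nupr1 and T, at Euclidean distances of 0.125, 0.140 and 0.193. In Herpud1, as in Myc, control replicate 1 was lowest and control replicate 2 next, with 13.1 and 23.1 RPKM in the controls and 25.4 and 27.1 RPKM after Hnrnpk siRNA. T stood at 0.361 and 0.846 RPKM in the controls and at 1.07 and 1.03 RPKM after Hnrnpk siRNA. At this level the added 0.5 RPKM weighs on its profile. Nupr1 is also in the integrated stress response list. Those nearest to Mycn were Flywch1, Ikbkap and Zbtb12, at 0.0135, 0.0348 and 0.0393. Flywch1 stood at 24.5 and 26.2 RPKM in the controls and at 12.8 and 12.6 RPKM after Hnrnpk siRNA. These distances rest on 4 libraries in 2 groups.

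Mycn made up less of the summed level of Myc and Mycn after Hnrnpk siRNA. Its share was 81.2% and 71.0% in the controls and 51.7% and 52.1% after Hnrnpk siRNA. The sum itself was 97.4 and 118 RPKM in the controls and 81.1 and 79.0 RPKM after Hnrnpk siRNA, so both Hnrnpk siRNA libraries lay below both controls. The sum of Mxi1, Mxd3, Mxd4 and Mnt was also lower, with 39.6 and 35.4 RPKM in the controls and 28.9 and 28.8 RPKM after Hnrnpk siRNA. MYC over antagonist RPKM was therefore 2.46 and 3.35 in the controls and 2.81 and 2.74 after Hnrnpk siRNA. The control values enclosed the others. With Mycl1 added to the MYC genes and Mxd1 and Mga to the antagonists, the ratios were 1.77 and 2.25 in the controls and 1.74 and 1.77 after Hnrnpk siRNA, so that 1 Hnrnpk siRNA library lay below both controls. No test of these sums was made.

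**Figure D3:**
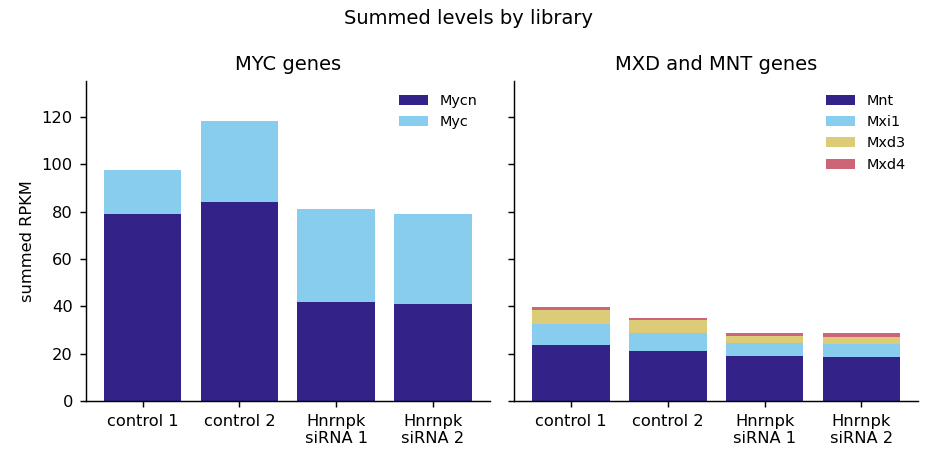
Stacked RPKM in each library of Mycn and Myc (left) and of Mnt, Mxi1, Mxd3 and Mxd4 (right), on the same axis from 0. Both stacks are lower after Hnrnpk siRNA, and Mycn makes up 51.7% and 52.1% of the MYC stack there against 81.2% and 71.0% in the controls.

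Among the MXD genes, Mxi1 and Mxd3 fell and Mxd4 rose. Mxd3 (chromosome 13, 55325168 to 55329823), an MXD gene known for its expression in dividing cells, stood at 6.15 and 5.66 RPKM in the controls and at 2.92 and 3.29 RPKM after Hnrnpk siRNA. Its level fell by 47.5% (log2 change -0.83, SE 0.0891, adjusted p = 3.02e-05). Mxi1 (chromosome 19, 53310518 to 53375810), which encodes MXD2, stood at 8.45 and 7.47 RPKM in the controls. After Hnrnpk siRNA it was at 5.40 and 5.37 RPKM (log2 change -0.52, SE 0.0831, adjusted p = 0.00039). Mxd4 (chromosome 5, 34173883 to 34187720) was the lowest of the 8 genes, at 1.05 and 0.851 RPKM in the controls and 1.48 and 1.57 RPKM after Hnrnpk siRNA. Its level was 60.5% higher (log2 change 0.48, SE 0.102, adjusted p = 0.00212), and the added 0.5 RPKM lessens a change at this level. For each of these 3 genes, both Hnrnpk siRNA libraries stood apart from both controls. Exons of Mxd3 share 105 bases, 4.43% of their length, with Prelid1 on the opposite strand, which stood at 269 and 263 RPKM in the controls and at 275 RPKM in both Hnrnpk siRNA libraries. Exons of Mxd4 share 514 bases, 6.06% of their length, with Gm42846, an antisense gene for which no level was available. Reads of the overlapping genes may not have been told apart, since a strand setting was not given in the sources used here.

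Mnt, the most abundant antagonist of the 8 genes, fell by 16.9%. MNT is a broadly expressed MAX partner that represses E-box genes. The gene (chromosome 11, 74830920 to 74845725) stood at 24.0 and 21.4 RPKM in the controls and at 19.1 and 18.6 RPKM after Hnrnpk siRNA, and its log2 change was -0.26 (SE 0.0732, adjusted p = 0.0106). The groups did not overlap, but the gap between the nearest values was no larger than that between the controls. The call was lost without control replicate 1 (-0.18, adjusted p = 0.0579), without Hnrnpk siRNA replicate 2 (-0.24, adjusted p = 0.0577) and with trends on GC content removed (-0.11, adjusted p = 0.187), and the adjusted p ran from 0.00145 to 0.187 among the alternatives.

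The MLX arm moved in opposite directions: Mlx rose and its partner Mlxip fell. Mlxip (chromosome 5, 123394798 to 123457932), which encodes the glucose-responsive factor MondoA, stood at 13.2 and 13.3 RPKM in the controls and at 7.99 and 7.21 RPKM after Hnrnpk siRNA. It fell by 42.6% (log2 change -0.76, SE 0.0760, adjusted p = 1.92e-05), with controls that nearly coincided. Mlx (chromosome 11, 101087277 to 101092207) stood at 49.0 and 50.9 RPKM in the controls and at 56.9 and 63.1 RPKM after Hnrnpk siRNA, a rise of 20.2% (log2 change 0.26, SE 0.0695, adjusted p = 0.00785). Without Hnrnpk siRNA replicate 2 it was 0.19 (adjusted p = 0.0725), where the alternatives spanned 0.00102 to 0.0725. Exons of Mlx share 385 bases, 19.3% of their length, with Psmc3ip on the opposite strand, so the reads of these genes could not be separated here. Psmc3ip stood at 24.7 and 25.96 RPKM in the controls and at 19.0 and 20.6 RPKM after Hnrnpk siRNA, the opposite direction to Mlx.

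By level per gene length, the order of the 8 genes in the controls was Mycn, Mlx, Myc, Mnt, Mlxip, Mxi1, Mxd3 and Mxd4. Myc and Mnt could not be ordered there, since Mnt at 21.4 to 24.0 RPKM lay between the Myc values of the controls. After Hnrnpk siRNA the order was Mlx, Mycn, Myc, Mnt, Mlxip, Mxi1, Mxd3 and Mxd4. Mycn at 41.2 and 42.0 RPKM and Myc at 37.8 and 39.2 RPKM were then neighbours whose values did not overlap. Mxd4 was last in both groups.

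The rest of the network held 6 genes in the table: Max, Mga, Mycl (listed as Mycl1), Mxd1, Mlxipl and Mycs. Of these, 5 were tested, and 1 was called higher and 3 lower (80% called, against 67.2% of all genes, 32.2% higher and 35% lower). Max, the obligate partner of the MYC, MXD and MNT proteins, stood at 43.8 and 44.7 RPKM in the controls and at 45.1 and 45.9 RPKM after Hnrnpk siRNA. Its log2 change of 0.039 (95% confidence interval -0.096 to 0.17, adjusted p = 0.582) was not called, and turned to -0.0057 under quantile normalization and -0.048 with equal RPKM sums. Mycl1, the third MYC gene, fell from 9.04 and 7.85 RPKM to 4.36 and 4.48 RPKM (log2 change -0.86, SE 0.0868, adjusted p = 2.12e-05). Mlxipl, which encodes ChREBP, fell from 3.32 and 2.69 RPKM to 1.22 and 1.30 RPKM (log2 change -0.99, SE 0.106, adjusted p = 3.04e-05). Both therefore changed in the direction of Mycn and Mlxip. Mxd1 rose from 1.42 and 1.51 RPKM to 2.40 and 2.39 RPKM (log2 change 0.56, SE 0.0877, adjusted p = 0.000355). Mga, a MAX partner of the PRC1.6 repressor complex, stood at 19.2 and 19.3 RPKM in the controls and at 17.9 and 15.8 RPKM after Hnrnpk siRNA. Its call (log2 change -0.19, SE 0.0745, adjusted p = 0.0479) was lost in 6 of 14 alternatives, with an adjusted p of up to 0.368 without Hnrnpk siRNA replicate 2. Mycs was listed at 0 in 3 libraries and at 0.00765 RPKM in the fourth, and was not tested.

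**Figure D4:**
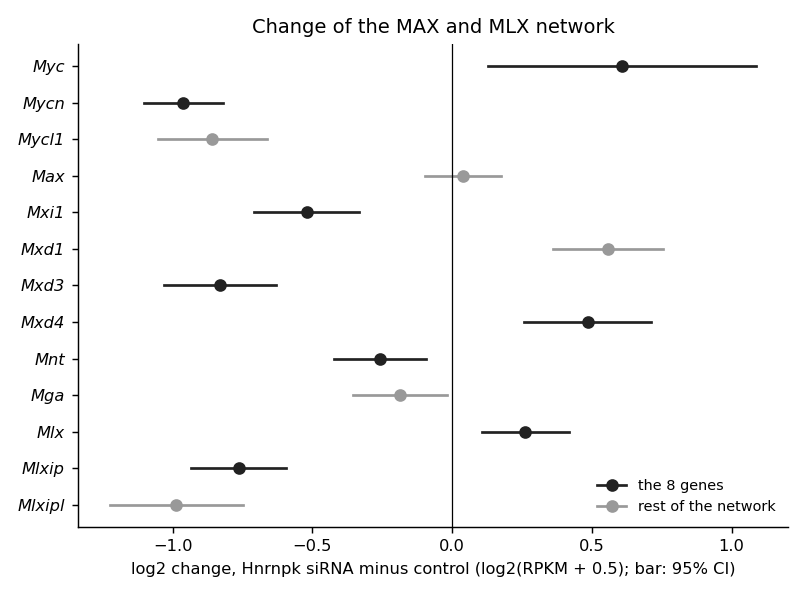
Log2 change after Hnrnpk siRNA with its 95% confidence interval from limma for the 8 genes (dark) and the other tested genes of the network (grey). Mycn, Mycl1, Mxd3, Mlxip and Mlxipl lie between -0.99 and -0.76, Myc has the widest interval (0.13 to 1.09), and that of Max spans 0.

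Genes that feed into Myc were taken next, from lists drawn up for this family. Of 18 genes of the LIF, Wnt and ERK inputs, all tested, 4 were called higher and 11 lower (83.3% called, against 67.2% of all genes). Their median log2 change was -0.40. Lifr, the LIF receptor, stood at 17.1 and 17.0 RPKM in the controls and at 9.04 and 8.07 RPKM after Hnrnpk siRNA (log2 change -0.96, SE 0.0758, adjusted p = 4.76e-06). Socs3, a feedback inhibitor of STAT3 signalling and its target, fell from 85.3 and 70.3 RPKM to 35.6 and 35.1 RPKM (log2 change -1.12). Tcf7, a nuclear factor of the Wnt pathway, Srf, which binds serum response elements, and Mapk3, which encodes ERK1, fell with log2 changes of -1.09, -0.75 and -0.69. Ctnnb1, Jak1, Elk1 and Tcf7l2 were the genes called higher.

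Of 19 tested factors reported to bind Myc DNA or mRNA, 4 were called higher and 3 lower (36.8% called, against 67.2% of all genes), with a median log2 change of 0.070. Fubp1, which binds the far upstream element of MYC, fell from 83.9 and 73.0 RPKM to 55.5 and 53.5 RPKM (log2 change -0.52, SE 0.0757, adjusted p = 0.000225). Ctcf, an insulator protein, rose from 54.1 and 58.1 RPKM to 76.4 and 73.6 RPKM (log2 change 0.42, SE 0.0649, adjusted p = 0.000338). Hnrnpd, which binds AU-rich mRNA, fell with a log2 change of -0.31. Maz and Fubp3 had log2 changes of -0.28 and 0.23, and neither call held in every alternative: Maz was at -0.027 with GC trends removed and Fubp3 at 0.14 with equal RPKM sums. Cnbp, which binds the CT element, was not called. Whether this list differs from all genes was not tested.

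Of 20 MYC coactivators, 2 were called higher and 6 lower (40% called, against 67.2% of all genes). Their median log2 change was 0.015, with a range of -0.38 to 0.30. The genes with the lowest p were Ep400 and Hcfc1, which fell with log2 changes of -0.38 and -0.32, Paf1, which rose by 0.30, and Trrap and Smarcb1, at -0.26 and -0.24. Trrap, the scaffold through which MYC recruits histone acetyltransferases, stood at 23.2 and 23.9 RPKM in the controls and at 20.1 and 19.0 RPKM after Hnrnpk siRNA. Its call was lost without Hnrnpk siRNA replicate 2 (-0.22, adjusted p = 0.0579).

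The corepressors used by the MXD proteins, MNT and MIZ1 went both ways. Of 14, 4 were called higher and 6 lower (71.4% called, near the 67.2% of all genes, median log2 change -0.027). Sin3a, the corepressor that MXD proteins bind, fell from 76.1 and 73.8 RPKM to 57.0 and 54.4 RPKM (log2 change -0.42, SE 0.0619, adjusted p = 0.000221), while Sap30, a subunit of the same complex, rose from 87.3 and 90.2 RPKM to 122 and 129 RPKM (log2 change 0.49, SE 0.0636, adjusted p = 0.0001). Dnmt3a, a DNA methyltransferase reported to act with MYC and MIZ1, and Smarca4, a chromatin remodelling ATPase, fell with log2 changes of -1.09 and -0.50. Zbtb17, which encodes MIZ1 itself, was not called.

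Regulators of MYC protein stability had 5 of 22 genes called higher and 10 lower (68.2% called, near the 67.2% of all genes, median log2 change -0.11). The count called higher was 2 with equal RPKM sums and 1 to 5 on leaving out a library. Usp28, a deubiquitinase that counteracts degradation of MYC, fell from 56.1 and 51.0 RPKM to 23.4 and 22.02 RPKM (log2 change -1.22, SE 0.0705, adjusted p = 8.38e-07). Ppp2r5a, a PP2A subunit, Gsk3a, a kinase that marks MYC for degradation, Usp7 and Plk1 fell with log2 changes of -0.72, -0.53, -0.50 and -0.44. Fbxw7, the ubiquitin ligase subunit that recognises phosphorylated MYC, was among the genes called higher. These are transcripts, and MYC protein was not measured.

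Genes known as activated by MYC went both ways. Of 70 genes, all tested, 12 were called higher, 25 lower and 33 were not called (52.9% called, against 67.2% of all genes). Their log2 changes ran from -1.43 to 0.48 with a median of -0.041. Genes of glycolysis were among those lower: Ldha, which encodes lactate dehydrogenase A, fell from 456 and 476 RPKM to 168 and 187 RPKM (log2 change -1.39, SE 0.0743, adjusted p = 5.5e-07), and Hk2 and Eno1 fell with log2 changes of -0.70 and -0.46. The folate carrier gene Slc19a1 and Polr1b, which encodes a subunit of RNA polymerase I, were at -0.93 and -0.58. Genes that act in ribosome production were called in both directions: Npm1, Nop56, Nop58, Nop16, Nop2, Nhp2 and Gar1 were among those higher, and Ddx21, Bop1, Nolc1, Gnl2, Noc4l, Rrp12, Rcl1 and Wdr12 among those lower. The count of genes called higher was 6 under quantile normalization and with equal RPKM sums, against 12 here, so the number called higher depends on the scaling. Odc1, an ornithine decarboxylase gene often used as a MYC target, was called lower, and Ncl and Cad were not called.

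Genes known as repressed by MYC had 9 of 17 tested members called higher and 5 lower (82.4% called, against 67.2% of all genes). The median log2 change of the list was 0.32. Gadd45b rose from 8.83 and 10.05 RPKM to 41.6 and 44.7 RPKM (log2 change 2.14, SE 0.0784, adjusted p = 6.96e-08), and Cdkn1a, the gene of the cell cycle inhibitor p21, from 25.6 and 16.2 RPKM to 73.4 and 79.5 RPKM (log2 change 1.88, SE 0.162, adjusted p = 7.86e-06). Foxo3 and Cdkn1c, the gene of p57, rose with log2 changes of 0.996 and 0.71, and Gas6 fell with a log2 change of -1.15. Cdkn1a and Gadd45a are also targets of p53.

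Of 14 tested targets of the MLX partners, 13 were called lower (92.9%, against 35% of all genes), with a median log2 change of -0.63. The exception was Slc2a1, a glucose transporter gene with a log2 change of 0.13 that was not called. With GC trends removed, 1 gene of the list was called higher. The number called lower was 10 when only genes averaging at least 1 RPKM were kept, and 12 with no filter on low values. Txnip, the arrestin-like inhibitor of glucose uptake that MondoA is best known for activating, stood at 70.0 and 48.7 RPKM in the controls and at 23.1 and 23.6 RPKM after Hnrnpk siRNA (log2 change -1.31, SE 0.134, adjusted p = 2.28e-05). Both Hnrnpk siRNA libraries were below both controls, which differed between themselves. Its relative Arrdc4 was also called lower. The lipid synthesis genes Acaca, Fasn and Acly fell with log2 changes of -1.71, -1.18 and -0.59, and are also targets of SREBP factors. Dak (now Tkfc), which encodes a fructose pathway enzyme, fell with a log2 change of -1.08, and Hk2 at -0.70 is a gene of the MYC-activated list too.

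**Figure D5:**
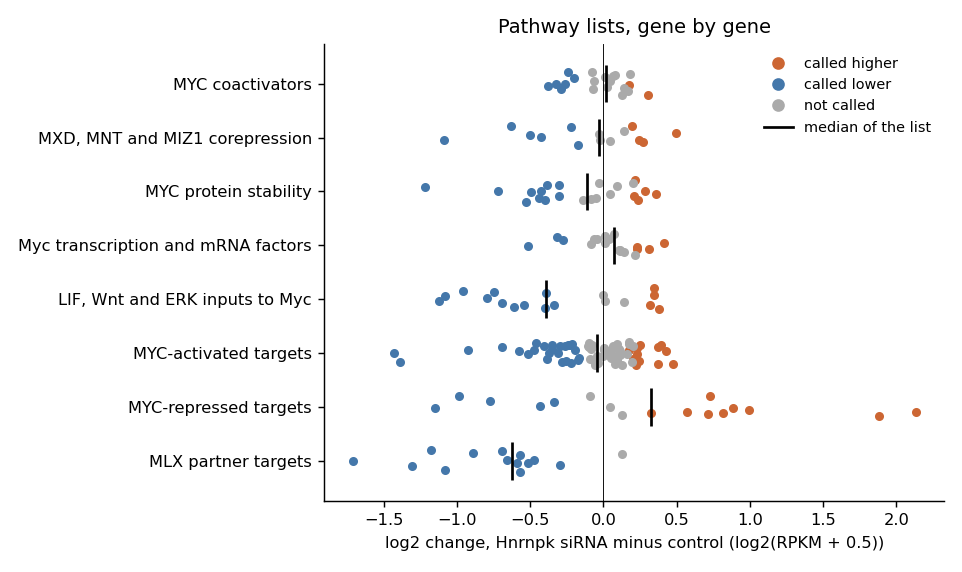
Log2 change after Hnrnpk siRNA of each tested gene in 8 lists of the pathway, coloured by its call in limma, with the median of each list as a bar. The MLX partner targets have the lowest median (-0.63) and the MYC-repressed targets the highest (0.32), while the MYC-activated targets centre near 0 (-0.041).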

How the data were processed

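The authors deposited RPKM values per gene, all 4 libraries together in a single table. Per the submitters' processing notes, BWA, SAMtools and the build mm9 were used. The counting tool, annotation, strand setting and treatment of multiply matching reads were not given in the sources used here. Ribosomal RNA depletion and poly(A) selection are both named in the labels' protocols. Whole reads were not recovered from the low values, so depth is unknown and no count model was used. Values were analysed as log2(RPKM + 0.5) for genes averaging 0.5 RPKM or more, with limma 3.58.1 in R 4.3.3 (mean-variance trend, moderated two-sided tests, 2 residual and 7.47 prior degrees of freedom). All 4 libraries entered the fit, with Benjamini-Hochberg adjustment across all 12486 genes tested. On simulated data for 12486 genes, of which 200 were changed, limma called 88% of genes changed by 0.5 and 100% of those changed by 1 (log2). In the data 67.2% of genes were called, so the simulated rates need not hold there. Of the 204 calls in the simulation, 16 were false.

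Positions, exon overlaps and GC content came from GENCODE M21 (GRCm38) by Ensembl identifier, which held 92.8% of the genes. Promoters came from RefSeq. Symbols are printed as in the table. The genes and the 9 further lists were chosen with earlier results of these data known, and the integrated stress response list after the control values of Myc were seen. Named were the 8 genes, the rest of the network, up to 5 called members of each other list with the lowest p, and the 3 genes nearest to Myc and Mycn. Genes named beside these, such as Fbxw7, Cnbp, Zbtb17, Odc1, Ncl, Cad, the ribosome production genes, Dppa5a, Arrdc4, Acly, Slc2a1, Ctnnb1, Gadd45a, Trib3 and Atf4, were chosen after their values were seen. The 14 alternatives were other added values, filters, scalings, variance models, a replicate block and leaving out each library. A gene of the corepressor list and 1 promoter stretch are not reported here.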

Additional observations from a re-analysis of the deposited data

How the results depend on the processing

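Mycn, Mxi1, Mxd3, Mxd4, Mlxip and Hnrnpk kept their direction and call in all 14 alternatives, with log2 changes of -1.05 to -0.90 for Mycn, -0.61 to -0.44 for Mxi1, -0.91 to -0.74 for Mxd3, 0.37 to 0.64 for Mxd4 and -0.85 to -0.69 for Mlxip. Leaving out 1 library at a time gave 0.16 to 1.05 for Myc, -0.34 to -0.18 for Mnt and 0.19 to 0.34 for Mlx, and each lost its call in at least 1 of these fits. In such fits the lone library of a group is assumed to vary like the others. The call of Myc was also lost at 0.61 with no filter on low values, where the variance is pooled over more genes, and that of Mnt at -0.11 with GC trends removed. For Max, quantile normalization gave -0.0057 and equal RPKM sums -0.048. Among the lists, genes called higher numbered 1 for the MYC coactivators with 1 RPKM added, no filter, quantile normalization, equal RPKM sums or no variance trend, 4 with median-ratio scaling, GC trends removed or the replicate block, and 1 to 4 without 1 library. They numbered 2 for the corepressors under quantile normalization and equal RPKM sums, and 2 with equal RPKM sums for protein stability (1 to 5 without 1 library) and for the factors on Myc DNA and mRNA (2 to 5). For MYC-activated targets there were 6 with no filter, quantile normalization or equal RPKM sums, and 6 to 14 without 1 library, and for MLX partner targets 1 with GC trends removed. With Mycl1, Mxd1 and Mga in the sums, mean MYC over antagonist RPKM was 2.01 in the controls and 1.76 after Hnrnpk siRNA. Control replicate 1, at 1.767, lay between the Hnrnpk siRNA libraries (1.740 and 1.774), and control replicate 2 was at 2.247. The causes of these shifts were not tested. Deviations of same-numbered replicates were nearly uncorrelated (r = 0.0267 over 12486 genes). That value cannot show whether libraries of the same number were prepared together. The replicate block gave 4162 genes called higher and 4460 lower, against 4025 and 4371 without it, and called the same 8 of 8 genes.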
